A study of Mus musculus with 3 samples.

Results

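The creatine kinase shuttle and oxygen storage of the heart were followed through 8 genes, chosen by name out of the 32285 genes listed in the matrices: Ckm, Ckmt2, Ckb, Slc6a8, Ak1, Slc25a4, Slc25a5 and Mb. They were read in 3 heart sections of C57BL/6 mice aged 8 weeks, 1 section for each condition, so no value has a replicate and no test between conditions could be made. The sham mouse had vehicle by gavage for 7 days and then needles passed without ligation. The I/R (ischemia-reperfusion) mouse had the same vehicle, then the left anterior descending coronary artery tied for 30 min and opened for 24 h. The SBP mouse had the same operation after 7 days of SBP (Shexiang Baoxin Pill, named MUSKARDIA in the labels), a compound of traditional Chinese medicine. Each section lay on a Visium array, on which a spot captures the polyadenylated RNA of a small patch of tissue with several cells, and each captured transcript carries a unique molecular identifier (UMI).

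After spots with under 200 detected genes were left out, 2234 sham, 2082 I/R and 1960 SBP spots remained, with 25118258, 30238530 and 21631280 UMIs. The mitochondrial genes held 48.6%, 44.3% and 46.3% of these UMIs, and the 8 genes held 1.90%, 1.48% and 1.76%. All 7 genes of a cardiomyocyte list were found in each section, with a summed level of 38642, 28706 and 35198 UMIs per 1000000 UMIs (CPM). A list of 7 skeletal muscle genes summed to at most 2.19 CPM, with Myh4 at 0 in all sections and Myh1 and Myh2 at 0 in I/R and SBP. Xist had 2, 0 and 0 UMIs in sham, I/R and SBP and 4 Y-linked genes were found in all, and of the 8 genes Slc6a8 and Slc25a5 are X-linked. By GENCODE the genes lie in GRCm38 with Ckm at chr7:19404776-19422841, Ckmt2 at chr13:91853387-91876885, Ckb at chr12:111669361-111672338, Slc6a8 at chrX:73673150-73682502, Ak1 at chr2:32621758-32635058, Slc25a4 at chr8:46206797-46211284, Slc25a5 at chrX:36795651-36798807 and Mb at chr15:77015487-77050670. Intervals in the text are 95% intervals that cover counting error alone, and in spots that hold several cells fewer cells of a type and less RNA per cell cannot be told apart.

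In working heart muscle the creatine kinase shuttle links the mitochondria to the sites that use ATP. The adenine nucleotide translocases Slc25a4 and Slc25a5 carry ATP out of the mitochondrial matrix, the sarcomeric mitochondrial creatine kinase Ckmt2 passes its phosphate to creatine, and the muscle subunit Ckm and the brain-type subunit Ckb give it back to ADP in the cytosol. Slc6a8 brings creatine into the cell, the adenylate kinase Ak1 balances ATP, ADP and AMP, and myoglobin, the product of Mb, holds oxygen. Mature cardiomyocytes use mostly Ckm, whereas smooth muscle and many other cells use Ckb. Slc25a4 is likewise the translocase of heart and skeletal muscle, and Slc25a5 the one of many dividing or non-muscle cells.

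Both pairs of related genes, Ckm with Ckb and Slc25a4 with Slc25a5, differ in the sequence before their start sites, and the 250 bases upstream of the annotated RefSeq start (GRCm38.p6) are shown for these 4 because the pairs carry the comparisons that follow. Capitals mark matches on either strand to the E-box CANNTG, a site of muscle and other helix-loop-helix factors, or to the MEF2 consensus. The stretch of Ckm lies at chr7:19410844-19411093 on the plus strand, that of Ckb at chr12:111672339-111672588 on the minus strand, that of Slc25a4 at chr8:46211063-46211312 on the minus strand and that of Slc25a5 at chrX:36795347-36795596 on the plus strand.
Ckm: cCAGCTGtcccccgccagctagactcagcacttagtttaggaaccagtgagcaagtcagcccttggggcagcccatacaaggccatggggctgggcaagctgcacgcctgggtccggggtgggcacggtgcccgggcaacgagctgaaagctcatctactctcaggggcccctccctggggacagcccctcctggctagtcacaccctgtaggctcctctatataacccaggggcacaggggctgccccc
Ckb: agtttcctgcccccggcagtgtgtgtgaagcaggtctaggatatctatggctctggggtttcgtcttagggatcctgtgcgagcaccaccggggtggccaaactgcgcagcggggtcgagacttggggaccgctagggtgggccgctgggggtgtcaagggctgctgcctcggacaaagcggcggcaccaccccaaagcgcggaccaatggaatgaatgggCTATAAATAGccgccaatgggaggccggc
Slc25a4: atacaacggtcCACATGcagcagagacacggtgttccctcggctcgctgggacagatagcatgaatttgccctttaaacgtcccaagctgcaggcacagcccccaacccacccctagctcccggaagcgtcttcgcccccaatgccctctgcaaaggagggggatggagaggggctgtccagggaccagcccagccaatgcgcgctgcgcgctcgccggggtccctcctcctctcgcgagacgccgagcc
Slc25a5: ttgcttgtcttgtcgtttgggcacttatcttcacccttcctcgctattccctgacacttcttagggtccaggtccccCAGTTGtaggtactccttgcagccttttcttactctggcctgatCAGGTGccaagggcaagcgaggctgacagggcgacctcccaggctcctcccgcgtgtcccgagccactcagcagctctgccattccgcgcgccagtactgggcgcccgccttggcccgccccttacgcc
The Ckm stretch held 1 E-box, and its letters were CAGCTG, the form most tied to muscle factors. The Ckb stretch held no E-box but a MEF2 match whose letters include the TATA box core TATAAA, so those 2 motifs share the same bases. The Ckm stretch and most of the Slc25a4 stretch lie inside the genes as GENCODE draws them, downstream of earlier annotated starts. Slc25a4 held 1 E-box and Slc25a5 held 2, none of them CAGCTG. Of 32851 RefSeq promoter stretches of the same length 66.2% held an E-box, 13.0% CAGCTG, 12.4% TATAAA and 2.92% a MEF2 match, each on either strand. Promoter sequences were matched for 7 of the 8 genes, the exception being Slc6a8. A match of letters is a description and shows no bound factor.

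Mb was by far the most captured of the 8 genes, with sham at 11052 CPM, I/R at 8430 and SBP at 10372. Ranked by UMIs among all genes it stood at place 11 in sham and SBP and at place 10 in I/R. Slc25a4 followed with 4361, 3488 and 4227 CPM. The muscle creatine kinase Ckm stood at 1873, 1387 and 1476 CPM, and its mitochondrial partner Ckmt2 at 1091, 911 and 980 CPM. Each of these 4 genes was highest in sham and lowest in I/R, with SBP between, and no pair of sections had overlapping intervals. Since a UMI counts the 3′ end of a transcript once, the levels were not divided by gene length.

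Ak1 was captured about as often as Slc25a5 in sham, at 234 CPM (228 to 240) against 242 CPM (235 to 248), so their order in that section is within counting error. Ak1 then stood at 174 CPM in I/R and 186 in SBP, in the same order over the sections as Mb. Slc25a5 went another way, with 263 CPM in I/R, above the 242 of sham and the 234 of SBP, whose intervals overlap. Ckb reached 72.9 CPM for sham (69.6 to 76.3), 71.6 for I/R (68.6 to 74.6) and 51.7 for SBP (48.7 to 54.9), so its intervals overlap in sham and I/R and lie lower in SBP. The creatine transporter Slc6a8 was the least captured in sham, at 37.1 CPM (34.8 to 39.6), and had 53.0 CPM for I/R (50.5 to 55.7) and 49.7 for SBP (46.8 to 52.8), whose intervals overlap.

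**Figure D1:**
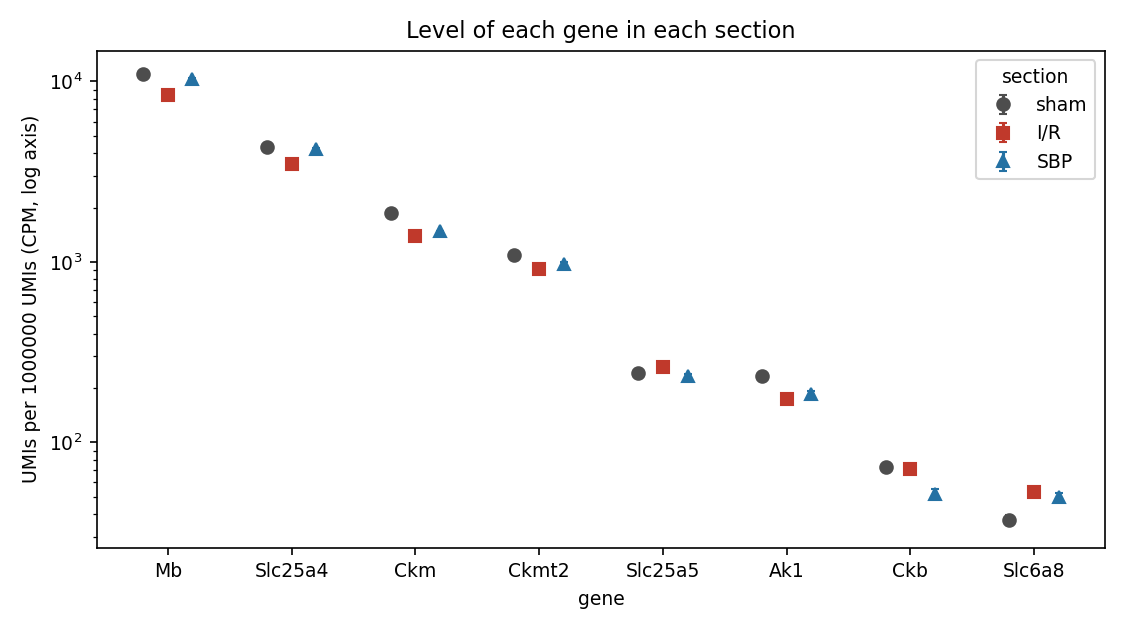
UMIs per 1000000 UMIs (log axis) of each gene in the sham, I/R and SBP sections, 1 section each; bars are exact Poisson 95% intervals and are mostly smaller than the points. Mb, Slc25a4, Ckm, Ckmt2 and Ak1 run from sham down to I/R with SBP between, Slc25a5 and Slc6a8 are highest in I/R, and Ckb is lowest in SBP.

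In I/R the lower sums went with a wider spread over spots. When each spot was thinned to 6500 UMIs, which left out 132, 202 and 213 shallower spots in sham, I/R and SBP, the median spot of each held 74, 60 and 69 Mb UMIs, with a variance over the mean of 3.39, 9.09 and 4.22. Of the sham spots 5.0% held fewer than 46 Mb UMIs, the sham 5th percentile, against 31.8% of I/R spots (29.7 to 34.0) and 9.96% of SBP spots (8.60 to 11.5). For Slc25a4 the shares under the sham 5th percentile were 4.38%, 25.2% and 7.27%, and for Ckmt2 4.28%, 16.1% and 7.61%. Ckm had shares of 4.19%, 24.6% and 13.7%, and in SBP no other of the 4 had more spots under its limit. Ckb was found in 32.6%, 31.5% and 25% of thinned spots and Slc6a8 in 22.4%, 29.5% and 27%, and before thinning in 48.0%, 53.8% and 38.7% and in 32.5%, 48.5% and 40.1%, and the median thinned spot held none of either.

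The first comparison asks how the section after 30 min of ischemia and 24 h of reperfusion differed from the sham section. None of the 8 genes was past 1.5-fold in I/R over sham, where 23.2% of all 12231 genes with at least 50 UMIs in the pair of sections were at least 1.5-fold higher and 3.49% at least 1.5-fold lower. The log2 ratios were -0.43 for Ckm (-0.45 to -0.41), -0.43 for Ak1 (-0.48 to -0.37), -0.39 for Mb (-0.40 to -0.38), -0.32 for Slc25a4 (-0.33 to -0.31) and -0.26 for Ckmt2 (-0.28 to -0.24). Ckb differed by -0.03, with an interval that includes 0 (-0.12 to 0.06). Slc25a5 was higher by 0.12 (0.08 to 0.17) and Slc6a8 by 0.52 (0.40 to 0.63). Leaving the mitochondrial genes out of the denominator shifted each of these ratios by -0.12. Ckb was then at -0.14, Slc25a5 at 0.0094 and Slc6a8 at 0.40, with no interval computed. In the same comparison leukocyte lists were higher, by a summed log2 ratio of 3.12 for neutrophil genes (4 of 4 higher), 1.52 for monocyte genes (3 of 3) and 0.40 for macrophage genes (3 of 3), and their part in these differences was not tested.

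The level of the typical gene moved too: over the 8545 genes that reached 100 UMIs everywhere the median log2 ratio was 0.22, against -0.29 for the 8 genes. Set against that median, Ckm was at -0.65, Ak1 at -0.65 and Mb at -0.61, which are past 1.5-fold, while Slc25a5 turned from 0.12 to -0.09. The share of all genes past 1.5-fold was not counted on this shifted scale. The summed cardiomyocyte list had a log2 ratio of -0.43. Counted per UMI of that list, Ckm differed by -0.0048, Ak1 by 0.0010, Mb by 0.04, Slc25a4 by 0.11 and Ckmt2 by 0.17, and Ckb by 0.40, Slc25a5 by 0.55 and Slc6a8 by 0.94. Ckm, Ak1 and Mb thus differed by about as much as the list, Slc25a4 and Ckmt2 by less, and the part of the number of cardiomyocytes in this was not tested.

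The second comparison asks how the section from the SBP mouse differed from the I/R section. Again none of the 8 genes was past 1.5-fold, with a background of 1.95% of 12151 genes higher and 13.8% lower. Mb was higher in SBP by a log2 ratio of 0.30 (0.29 to 0.31) and Slc25a4 by 0.28 (0.26 to 0.29). Ckmt2 was higher by 0.11 (0.08 to 0.13), Ak1 by 0.10 (0.04 to 0.16) and Ckm by 0.09 (0.07 to 0.11). Ckb was lower by -0.47 (-0.57 to -0.36) and Slc25a5 by -0.17 (-0.22 to -0.12), whereas Slc6a8 differed by -0.09 with an interval that includes 0 (-0.21 to 0.02). The median gene was at -0.14 and the cardiomyocyte list at 0.29, so relative to the median gene Slc25a5 was at -0.03 and Slc6a8 at 0.04, the latter with its direction turned. The neutrophil, monocyte and macrophage lists were lower in the SBP section, by summed log2 ratios of -1.03, -1.11 and -0.43, with none of their genes higher. The sparse B cell list was lower by -1.21. The T cell list, at 0.73 CPM in I/R and 0.88 in SBP, was higher by 0.27. The part of these lists in the lower Ckb and Slc25a5 was not tested.

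Ckm stayed behind Mb in the SBP section. Ckm made up 14.5% of the UMIs of Ckm plus Mb for sham (14.4 to 14.6), 14.1% for I/R (14.0 to 14.3) and 12.5% for SBP (12.3 to 12.6). The log2 ratio of Ckm over Mb differed by -0.21 (-0.23 to -0.19) between SBP and I/R and by -0.04 (-0.06 to -0.02) between I/R and sham. Slc25a4 over Mb differed by -0.02 (-0.04 to -0.0066) between SBP and I/R and by 0.07 (0.05 to 0.08) between I/R and sham, so Slc25a4 was closer to Mb than Ckm was in the former comparison and not in the latter. Per UMI of the cardiomyocyte list Ckm was at -0.20, Ak1 at -0.20 and Ckmt2 at -0.19 in SBP over I/R, while Mb was at 0.0049 and Slc25a4 at -0.02. The list genes did not move alike. Myl2, the most captured, was at 8417 CPM in I/R and 12055 in SBP, Myh6 at 5054 and 5698 and Actc1 at 5212 and 4872. These values thus depend on the genes of the list, and other choices were not tested.

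Against sham, the SBP section had none of the 8 genes past 1.5-fold, with a background of 5.31% of 11768 genes higher and 2.77% lower. The log2 ratios were -0.49 for Ckb (-0.60 to -0.39), -0.34 for Ckm (-0.36 to -0.32), -0.33 for Ak1 (-0.39 to -0.27) and -0.15 for Ckmt2 (-0.18 to -0.13). Mb was at -0.09 (-0.10 to -0.08), Slc25a4 at -0.04 (-0.06 to -0.03) and Slc25a5 at -0.04, with an interval that includes 0 (-0.10 to 0.01). Slc6a8 was at 0.42 (0.29 to 0.55), and the median gene at 0.08. This comparison shares its sections with the other two, so the 3 sets of ratios are not independent of one another.

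**Figure D2:**
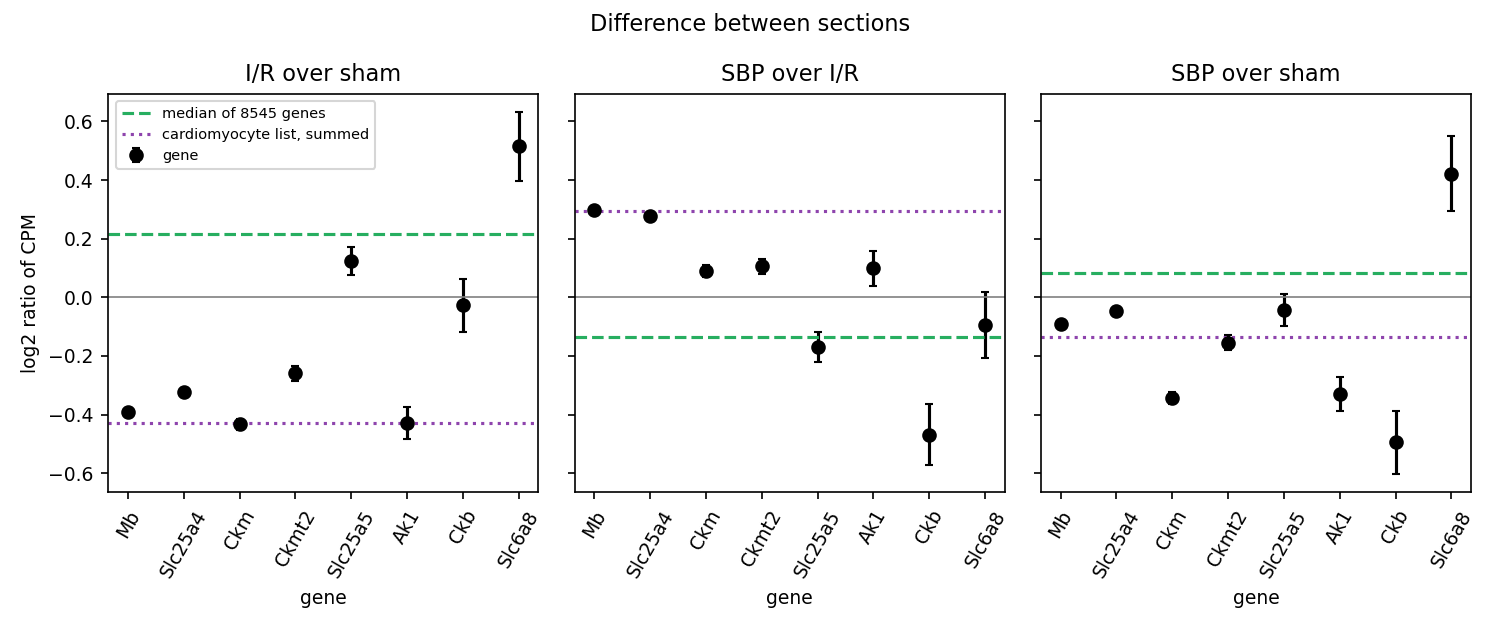
Log2 ratio of CPM of each gene for I/R over sham, SBP over I/R and SBP over sham; bars are exact conditional 95% intervals, the dashed line is the median of 8545 genes and the dotted line the summed cardiomyocyte list. In I/R over sham Ckm, Ak1 and Mb lie close to the dotted line at -0.43 and Slc6a8 lies above the dashed line at 0.22; in SBP over I/R Mb and Slc25a4 lie by the dotted line at 0.29 and Ckm, Ckmt2 and Ak1 below it.

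A ratio of 2 genes within a section does not depend on the denominator. Ckb made up 3.75% of the UMIs of Ckb plus Ckm for sham (exact binomial interval 3.58 to 3.92), 4.91% for I/R (4.71 to 5.11) and 3.39% for SBP (3.19 to 3.59). The log2 ratio of Ckb over Ckm differed by 0.41 (0.32 to 0.50) between I/R and sham and by -0.56 (-0.66 to -0.45) between SBP and I/R, and SBP differed from sham by -0.15 (-0.26 to -0.04). Which of the pair differed depends on the denominator: between I/R and sham Ckm was at -0.43 and Ckb at -0.03 per UMI of the section, but Ckm at -0.0048 and Ckb at 0.40 per UMI of the cardiomyocyte list. Without the spots above the sham 95th percentile of a list of 7 injury genes, a setting chosen after seeing the data, Ckb made up 3.35%, 2.65% and 2.70%, and the difference between I/R and sham turned to -0.35 and that between SBP and I/R to 0.03. This setting left out 112 sham, 799 I/R and 337 SBP spots, with 13.9%, 57.5% and 28.8% of the Ckb UMIs. The sections were thus not trimmed alike.

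Slc25a5 made up 5.25% of the UMIs of both translocases for sham (5.12 to 5.38), 7.02% for I/R (6.87 to 7.17) and 5.25% for SBP (5.11 to 5.4). Its log2 ratio over Slc25a4 differed by 0.45 (0.40 to 0.50) between I/R and sham and by -0.45 (-0.50 to -0.39) between SBP and I/R, and it differed by 0.0015 between SBP and sham (-0.05 to 0.06). Outside the spots rich in the injury list the shares were 5.13%, 5.18% and 4.80%, with differences of 0.02 and -0.12. Slc25a4 and Slc25a5 are close paralogs and Slc25a5 has processed pseudogenes, so reads shared between copies leave some uncertainty in these counts. The mitochondrial Ckmt2 made up 36.8%, 39.7% and 39.9% of the UMIs of Ckmt2 plus Ckm, a log2 difference of 0.17 (0.14 to 0.20) between I/R and sham and of 0.02 (-0.02 to 0.05) between SBP and I/R.

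**Figure D3:**
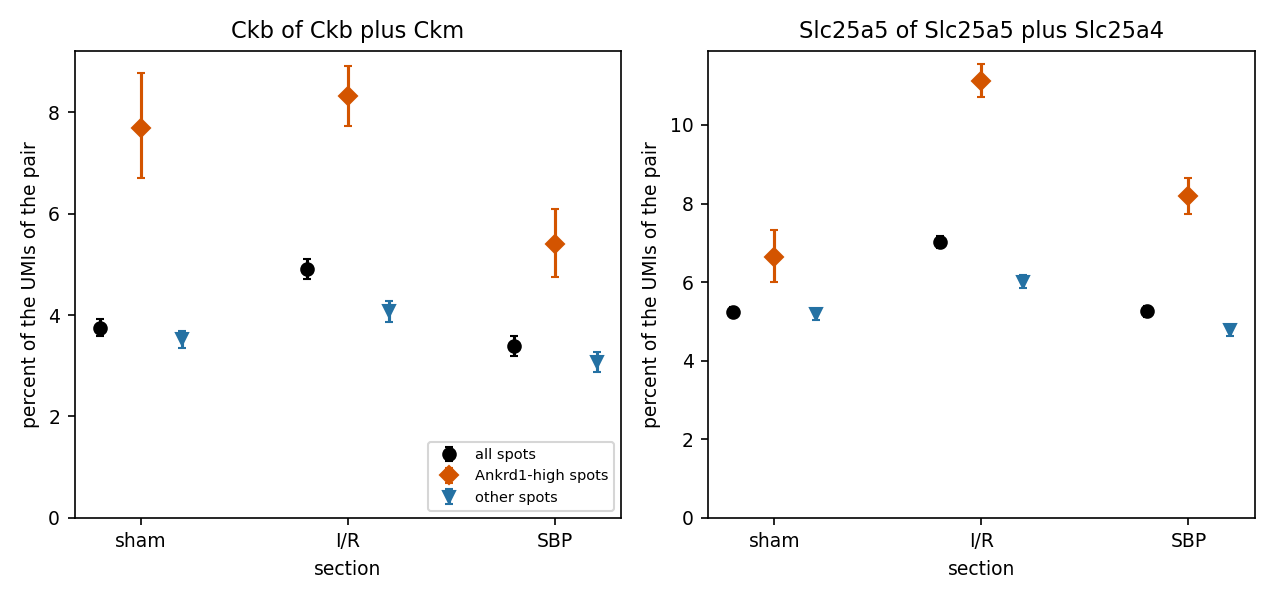
Percent of the UMIs of each pair that belonged to Ckb (left) or Slc25a5 (right) in all spots, Ankrd1-high spots and other spots of each section, with exact binomial 95% intervals. Both shares are highest in I/R over all spots, at 4.91% and 7.02%, and in every section the Ankrd1-high spots lie above the other spots.

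Ankrd1 encodes a muscle ankyrin repeat protein that responds to stretch and marks stressed heart muscle, and its level was used to split the spots. Spots above 27 Ankrd1 UMIs per 10000, the sham 95th percentile, were called Ankrd1-high: 112 of the sham spots (5.01%), 479 of the I/R spots (23.0%) and 326 of the SBP spots (16.6%). They were deeper than the other spots, with a median of 14927 against 10501.5 UMIs for sham, 17348 against 14103 for I/R and 11989.5 against 10453 for SBP. They also held fewer mitochondrial UMIs, 45.2% against 48.9%, 40.6% against 45.7% and 43.9% against 46.9%. The cardiomyocyte list summed to 27377 against 39535 CPM for sham, 23119 against 30774 for I/R and 28271 against 36731 for SBP.

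Mb was lower in the Ankrd1-high spots of each section. It stood at 7631 against 11324 CPM for sham, 5878 against 9374 for I/R and 7948 against 10908 for SBP, log2 ratios of -0.57 (-0.59 to -0.54), -0.67 (-0.69 to -0.66) and -0.46 (-0.47 to -0.44). Slc25a4 stood at 2870 against 4479, 2427 against 3881 and 3179 against 4459 CPM, ratios of -0.64, -0.68 and -0.49. Ckm stood at 1327 against 1916, 975 against 1539 and 1096 against 1560 CPM, ratios of -0.53, -0.66 and -0.51. Thus the 3 most captured genes had Ankrd1-high spots below the other spots in all sections. Ckmt2 had ratios of -0.41, -0.59 and -0.36 and Ak1 of -0.17 (-0.32 to -0.02), -0.66 (-0.76 to -0.56) and -0.45 (-0.58 to -0.32).

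The cytosolic isoform of other cells and the creatine transporter were higher in the Ankrd1-high spots. Ckb stood at 111 against 69.9 CPM for sham, 88.4 against 65.3 for I/R and 62.5 against 49.3 for SBP, log2 ratios of 0.66 (0.44 to 0.87), 0.44 (0.30 to 0.57) and 0.34 (0.13 to 0.55). Slc6a8 stood at 49.3 against 36.1, 64.9 against 48.7 and 62.8 against 46.8 CPM, ratios of 0.45, 0.41 and 0.42. Slc25a5 was lower there in sham, at 204 against 244 CPM and a ratio of -0.26 (-0.41 to -0.11), but higher in I/R, at 304 against 248 CPM and 0.29 (0.22 to 0.36), and in SBP, at 283 against 224 CPM and 0.34 (0.25 to 0.44). Ckb made up 7.69% of Ckb plus Ckm in the Ankrd1-high spots of sham, 8.31% in those of I/R and 5.4% in those of SBP, against 3.52%, 4.07% and 3.07% in the other spots.

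Past 1.5-fold in sham were Ckb, higher, and Slc25a4, lower, where 28.3% of all genes were higher and 6.08% lower. In I/R 5 of the 8 genes were at least 1.5-fold lower, namely Ckm, Ckmt2, Ak1, Slc25a4 and Mb, against 3.88% of all genes, and none was higher, against 13.6%. No gene of the 8 was past 1.5-fold in SBP, against 16.6% of all genes higher and 5.02% lower. With the sham 99th percentile as threshold, which left 23 of 2234 sham spots in the class, the count in sham was again 2, but of other genes. Ckb was at 0.23 and Slc25a4 at -0.57, short of 1.5-fold, and Slc6a8 at 0.88 and Mb at -0.61. No interval and no share of all genes was computed at this threshold. Ckb was then at 0.19 in I/R and 0.0045 in SBP. When Ankrd1 was set per 10000 UMIs without the mitochondrial genes the count was 0 in each section, with log2 ratios in I/R of -0.57 for Ckm, -0.57 for Mb, -0.56 for Slc25a4, -0.51 for Ak1 and -0.47 for Ckmt2, still lower but short of 1.5-fold. Per UMI of the cardiomyocyte list, the Ankrd1-high spots of I/R had log2 ratios of -0.25 for Ckm, -0.26 for Mb, -0.26 for Slc25a4, -0.25 for Ak1 and -0.18 for Ckmt2, and of 0.85 for Ckb, 0.83 for Slc6a8 and 0.70 for Slc25a5. In sham the same measure gave 2.4e-05 for Ckm and -0.04 for Mb, so Ckm and Mb went with the list there. By this measure in sham Ckmt2 and Ak1 were higher in the Ankrd1-high spots and Slc25a4 was lower.

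Within the Ankrd1-high spots alone the sections also differed, and so did the makeup of the class, since 34 of its 112 spots in sham were also above the sham 95th percentile of the injury list, against 348 of 479 in I/R and 134 of 326 in SBP. Ak1 had a log2 ratio of -0.79 (-0.96 to -0.61) in I/R over sham, Ckm of -0.44 (-0.51 to -0.38), Mb of -0.38 (-0.40 to -0.35) and Ckb of -0.32 (-0.55 to -0.09), while Slc25a5 was higher in I/R by 0.57 (0.42 to 0.73). In SBP over I/R, Mb was at 0.44 (0.41 to 0.46), Slc25a4 at 0.39 (0.36 to 0.42), Ckmt2 at 0.26, Ak1 at 0.23 and Ckm at 0.17, all higher, and Ckb at -0.50 (-0.71 to -0.29). In the spots high in Ankrd1 and not in the injury list I/R and sham lay closer together for Mb, Ckm and Ak1. There, in the order sham, I/R and SBP, Mb stood at 7948, 7392 and 8357 CPM and Ckm at 1421, 1201 and 1158. Ak1 stood at 214, 172 and 152 CPM in the same order. Ckb, at 91.5 (75.9 to 109), 64.5 (54.8 to 75.3) and 52.2 CPM, did not lie closer between I/R and sham.

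In I/R the differences ran through the range of Ankrd1 and did not begin at the threshold. Over 5 groups of spots cut at the sham 25th, 50th, 75th and 95th percentile of Ankrd1, Mb in I/R stood at 11213, 10605, 9908, 7523 and 5878 CPM. Ckm ran through 1901, 1789, 1635, 1175 and 975 CPM over the same groups of I/R spots, and from 1765 to 1096 CPM over those of SBP. In the lowest group Ckm was at 2040 CPM in sham, 1901 in that of I/R and 1765 in that of SBP, so the sections also differed where Ankrd1 was low. From the lowest group to the highest, Slc25a5 went from 219 to 304 CPM (I/R) and from 200 to 283 (SBP), but from 242 to 204 (sham). Ckb went from 58.9 to 111 CPM (sham), from 35.4 to 88.4 (I/R) and from 34.5 to 62.5 (SBP), with its highest SBP value, 66.5 CPM, in the group before the last.

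**Figure D4:**
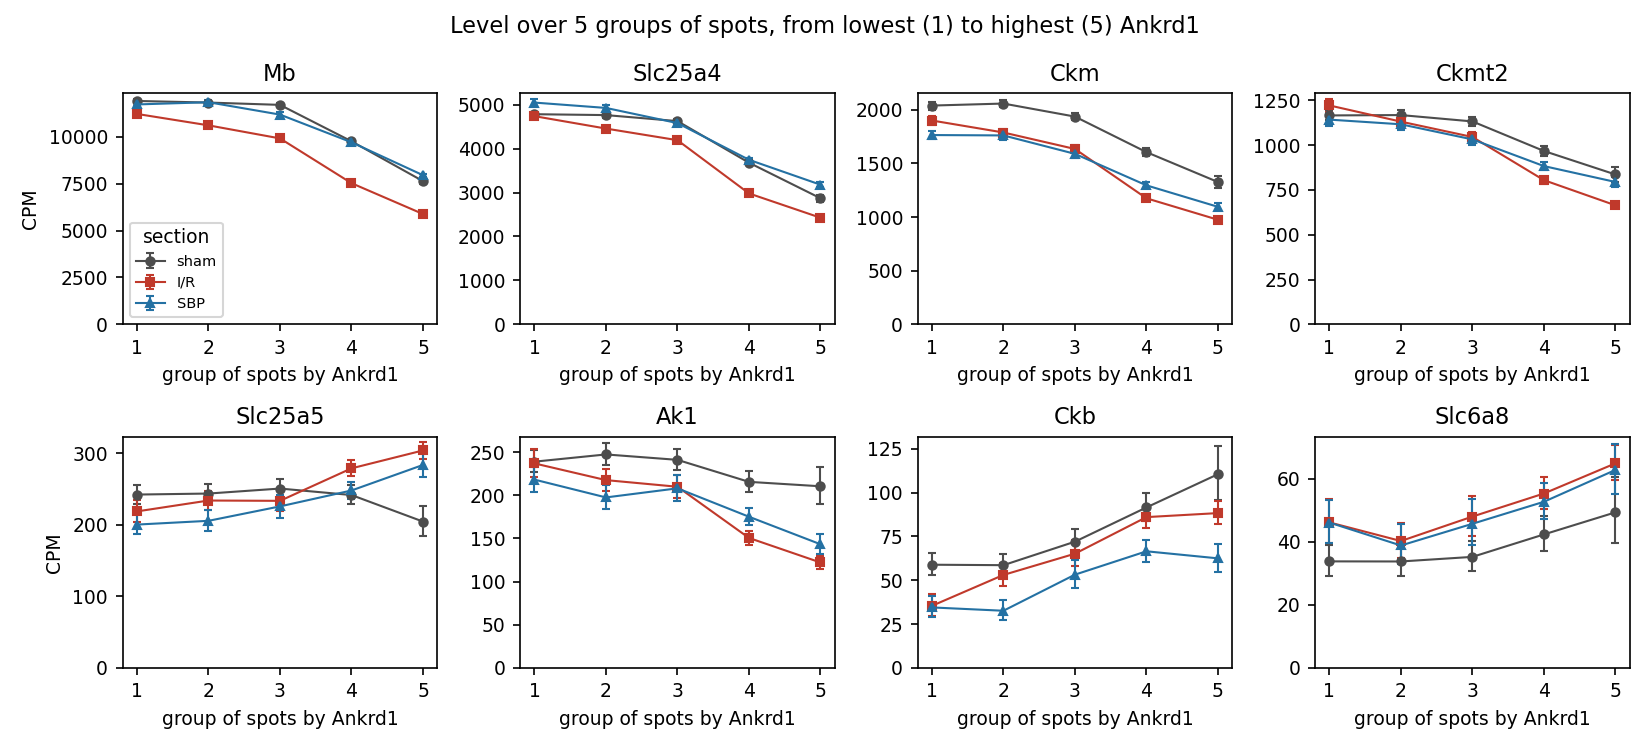
CPM of each gene over 5 groups of spots in each section, cut at the sham 25th, 50th, 75th and 95th percentile of Ankrd1 per 10000 UMIs; bars are exact Poisson 95% intervals. Mb, Slc25a4, Ckm and Ckmt2 are lower in the last 2 groups than in the first 3 in each section, Ckb and Slc6a8 are higher in the last group than in the first, and Slc25a5 ends above its first group in I/R and SBP and below it in sham.

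Crossing Ankrd1 with the injury list, which summed to 350, 1554 and 644 CPM in sham, I/R and SBP, split the spots further. In I/R 451 spots were above the sham 95th percentile of the injury list alone, 131 above that of Ankrd1 alone, 348 above both and 1152 above neither. Mb was at 10679 CPM in the spots above neither, 7392 with Ankrd1 alone, 5224 with both and 4262 with injury alone. Slc25a4 was at 4448, 3047, 2159 and 1658 CPM and Ckm at 1752, 1201, 877 and 706 CPM in the same order. In I/R the spots with the injury list alone were thus the lowest for each of these genes. They also held 25.4% mitochondrial UMIs against 50.9% and a cardiomyocyte list of 14523 against 34923 CPM in the spots above neither. In SBP Mb was lower with both, at 7305 against 7680 CPM with injury alone. In sham Ckm was at 1095 against 1140 CPM, with overlapping intervals. The other values of these genes in sham and SBP were lowest with injury alone. For Mb and Slc25a4 in sham and Ckm in SBP, however, the intervals overlapped those of the spots with both. Only Slc25a4 in SBP lay apart, at 2476 CPM with injury alone against 2770 with both.

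Ckb had the opposite order in the I/R section, at 43.2 CPM in spots above neither, 64.5 with Ankrd1 alone, 98.7 with both and 152 with injury alone. Ckb made up 17.7% of Ckb plus Ckm in the injury-alone spots (16.5 to 19.0) against 2.41% in those above neither (2.24 to 2.58). The same share was 15.4% against 3.23% in sham, with 78 injury-alone spots, and 10.7% against 2.52% in SBP, with 203. Slc25a5 in I/R was at 230 CPM above neither, 257 with Ankrd1 alone, 324 with both and 319 with injury alone, while in sham it was at 245, 198, 221 and 241 CPM. Slc6a8 was at 46.6, 53.1, 69.9 and 56.8 CPM in I/R. CPM counts mitochondrial UMIs, whose share in I/R was 50.9% above neither, 46.6% with Ankrd1 alone, 38.0% with both and 25.4% with injury alone. A smaller share raises the CPM of the other genes. Whether these orders hold without mitochondrial UMIs was not tested.

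The limits of Ankrd1 and of the injury list both come from sham, so unequal parts of the sections lay above them. The spots above neither were 2044 of 2234 in sham, 1152 of 2082 in I/R and 1431 of 1960 in SBP. A comparison of the sections in these spots is thus not like for like. There Ckm had a log2 ratio of -0.15 in I/R over sham, Ak1 of -0.13, Mb of -0.11, Slc25a4 of -0.03 and Ckmt2 of 0.04, with a median of -0.06 over 7431 genes. These are closer to 0 than over all spots, and each lies above the summed cardiomyocyte list of these spots, at -0.20. Slc25a5 was at -0.09 (-0.15 to -0.03) in these spots, against 0.12 over all spots. Ckb was lower in these I/R spots by -0.59 (-0.71 to -0.46), although over all spots it was at -0.03, and Slc6a8 was higher by 0.38 (0.23 to 0.52). In SBP over sham Ckm was at -0.26 (-0.28 to -0.24), Ak1 at -0.25, Ckb at -0.63 (-0.76 to -0.49), Mb at -0.03 and Slc25a4 at 0.04. SBP over I/R gave -0.11 for Ckm, -0.12 for Ckmt2, -0.12 for Ak1, 0.08 for Mb and 0.07 for Slc25a4. There the median gene was at 0.09 and the summed cardiomyocyte list at 0.12, so each of these genes lay below the list. Ckb was at -0.04 in SBP over I/R, with an interval that includes 0 (-0.19 to 0.11).

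Ckb was most concentrated where smooth muscle genes were high. In spots above the sham 95th percentile of a list of 4 smooth muscle genes it stood at 256 CPM in sham (112 spots), 282 in I/R (97 spots) and 245 in SBP (53 spots), against 63.4, 62.8 and 47.3 CPM in the other spots. These are log2 ratios of 2.01 (1.83 to 2.19), 2.17 (1.99 to 2.33) and 2.37 (2.09 to 2.65), and the rich spots held 17.3%, 15.7% and 10.7% of the Ckb UMIs. The smooth muscle list itself summed to 317, 237 and 124 CPM, with all 4 genes detected in each section. Acta2 held most of that sum in every section, with 83.0 CPM in SBP, and the paper uses Acta2 as its label of myofibroblasts. Between sham and I/R the lower sum was mostly Acta2, at 254 against 168 CPM, with Myh11 at 23.5 against 21.2, while Tagln was at 34.7 against 38.5 CPM and Cnn1 at 5.26 against 10.0. In SBP all 4 had lower CPM than in both other sections, and their part in the lower Ckb of SBP was not tested. Cnn1 was close to sham, at 4.85 CPM in SBP from 105 UMIs against 5.26 from 132, and no interval was computed. Without those spots Ckb still made up 3.26%, 4.27% and 3.09% of Ckb plus Ckm, with the same order of the sections.

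Other lists marked spots with more Ckb as well, but the cardiomyocyte list did not. In cardiomyocyte-rich spots the log2 ratio of Ckb was -0.23 in sham (-0.59 to 0.11) and -1.06 in SBP (-2.19 to -0.13). In I/R that ratio was -1.38, from 4 rich spots, with an interval that includes 0. The log2 ratio of list-rich over other spots was 1.35, 1.99 and 0.57 for fibroblast genes in sham, I/R and SBP, 1.39, 1.22 and 1.05 for macrophage genes and 1.38, 1.16 and 0.83 for pericyte genes. It was 0.94, 1.04 and 0.64 for neutrophil genes and 0.64, 1.04 and 0.94 for endothelial genes. Monocyte genes gave 0.81, 1.22 and 0.53, atrial genes 0.62, 0.65 and 0.89 and nerve and Schwann cell genes 0.75, 0.31 and 0.40, the last with an interval that includes 0. The atrial list was almost all Nppa, at 458, 1146 and 1380 CPM. Its Sln, Myl7 and Myl4 reached at most 0.12, 0.18 and 3.61 CPM, so these were Nppa-high spots and do not mark atrial tissue. Blood genes gave -0.20, -0.02 and 0.28, and these intervals include 0, as do those of the T cell, B cell and adipocyte lists, which had at most 27 rich spots where a ratio could be had. For the injury list it was 1.5, 1.41 and 1.2, and the injury-rich spots held 57.5% of the Ckb UMIs of I/R against 28.8% in SBP. Ckm was lower in the spots rich in the smooth muscle, fibroblast, macrophage, pericyte and injury lists in every section, by between -0.17 for smooth muscle genes in sham and -1.07 for the injury list in I/R. Slc25a5 was higher in injury-rich spots of I/R by 0.46 (0.40 to 0.53) and of SBP by 0.26 (0.15 to 0.37) and differed by -0.05 in sham (-0.22 to 0.11). Injury-rich spots held fewer mitochondrial UMIs, 35.8% against 49.3% in sham, 32.4% against 50.4% in I/R and 37.2% against 47.9% in SBP. A smaller mitochondrial share raises the CPM of the other genes, and its part in these ratios was not tested.

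**Figure D5:**
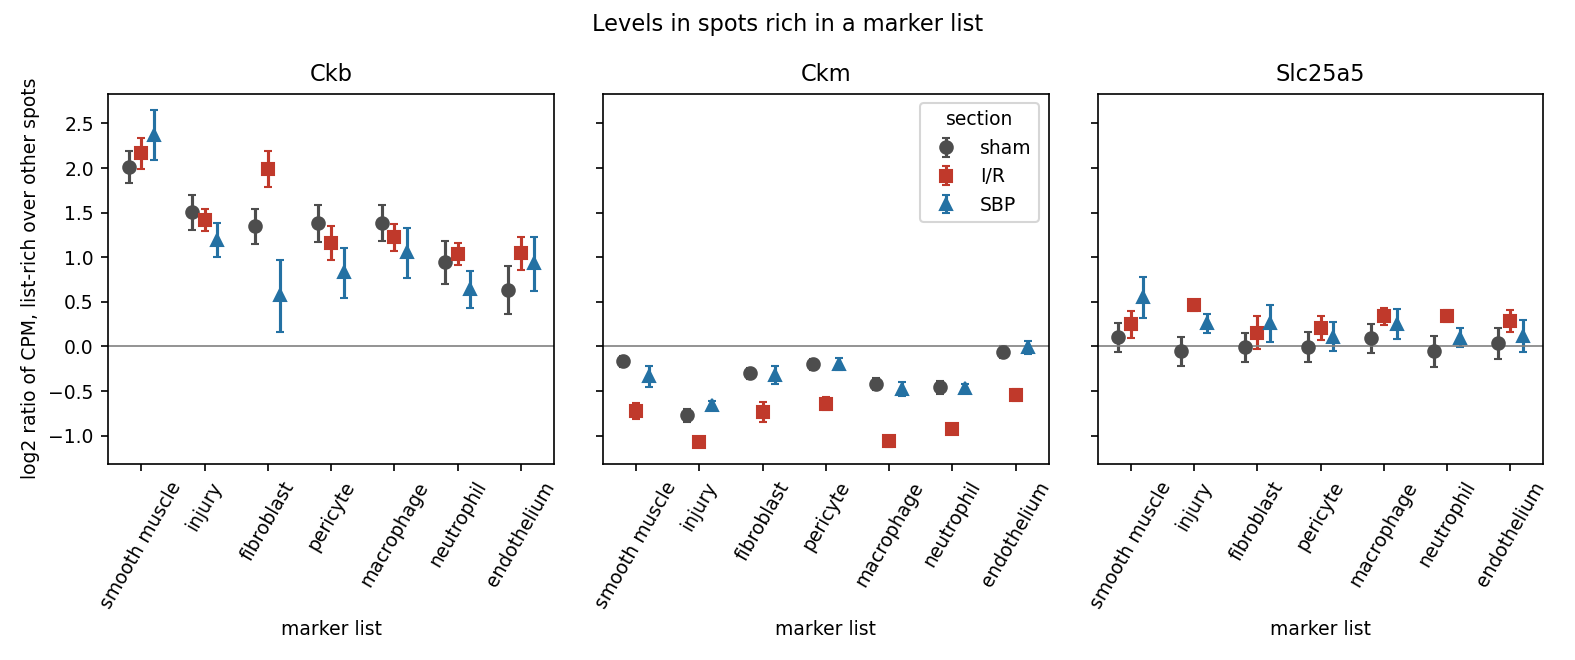
Log2 ratio of CPM of Ckb, Ckm and Slc25a5 in spots above the sham 95th percentile of each marker list over the other spots of the same section, with exact conditional 95% intervals. Ckb is above 0 for all 7 lists and highest for smooth muscle, at 2.01 to 2.37, Ckm is below 0 for 6 of the lists, while for endothelium its intervals include 0 in sham and SBP, and Slc25a5 lies near 0 in sham and is 0.46 in I/R for the injury list. CPM counts mitochondrial UMIs, whose share was smaller in the injury-rich spots of every section.

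Across thinned spots of a section the heart muscle genes went together, more so in I/R. Pearson's r of Mb with Slc25a4 was 0.54 over 2102 sham spots, 0.85 over 1880 I/R spots and 0.58 over 1747 SBP spots, and that of Ckm with Mb 0.40, 0.72 and 0.42. Spots of a section share a library and differ in makeup, so these are descriptions with no p. Among 1625 genes with at least 1000 UMIs in each section, those most like Mb by mean r were Myl2 (0.77), Fabp3 (0.72) and Tnni3 (0.71), which encode a ventricular myosin light chain, a fatty acid binding protein and cardiac troponin I. Most like Ckm were Myl2 (0.53), Fabp3 (0.52) and Mb (0.52). For Ckb they were Actb (0.25), Myl6 (0.23) and Flna (0.23), a cytoplasmic actin, a light chain of smooth and non-muscle myosin and an actin crosslinker. The values of Ckb are weak in counts this sparse, and those of Slc25a5 were weaker still, with Eef1a1 (0.12), Vim (0.11) and Rps2 (0.10) first. Slc6a8 had 932 UMIs in sham and was not compared.

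A list of 38 other genes of creatine and adenylate metabolism, of outer membrane channels and carriers and of factors that act on muscle energy genes gave 33 genes with at least 50 UMIs in each pair of sections. In I/R over sham 4 of them were at least 1.5-fold higher and 1 lower, in SBP over I/R none was higher and 6 lower, and in SBP over sham none was higher and 2 lower, beside the backgrounds given above. Creatine synthesis was little captured: Gatm, which makes its precursor, stood at 5.02, 5.72 and 3.14 CPM in sham, I/R and SBP, and Gamt, which completes it, at 6.89, 7.08 and 7.21 CPM. Ckmt1, the mitochondrial creatine kinase of other tissues, had 0, 2 and 3 UMIs.

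The outer membrane channels Vdac1, Vdac2 and Vdac3, through which adenylates and creatine phosphate cross, were at 313, 199.9 and 238 CPM in sham. Their log2 ratios I/R over sham were -0.19, 0.18 and -0.39, and those of SBP over I/R 0.11, -0.16 and 0.09. The mitochondrial Ak4 was lower in I/R than in sham by -0.67 (-0.89 to -0.45) and Ak6, a nuclear adenylate kinase, was higher by 0.59 (0.39 to 0.80). Srf, a factor of muscle and immediate early genes, differed by 0.65 (0.43 to 0.88) between I/R and sham and by -1.04 (-1.30 to -0.78) between SBP and I/R.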

How the data were processed

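Visium libraries of 1 heart section per condition were sequenced by the authors, and per the labels the counts were made with Space Ranger 1.3.0 against mm10, while the study's methods name another version and a human reference; the gene identifiers in the deposited files are mouse. The deposited values are whole UMI counts per gene and spot, not normalized. Spots with at least 200 detected genes were kept and UMIs summed per section or class of spots (CPM per 1000000 UMIs, mitochondrial genes included). Barcodes shared between sections, 1568 between I/R and sham, 1207 between SBP and I/R and 1565 between SBP and sham, come from the fixed list of array spots. Intervals at 95% were exact Poisson for sums, exact binomial (Clopper-Pearson) for shares, exact conditional for ratios and normal on the log odds for ratios of 2 genes. Spots were thinned to 6500 UMIs (seed 1) for shares of spots and correlations. The scripts were tested on simulated data.

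With 1 section per condition no p-value is given, spots are not replicates, and differences between mice cannot be told apart from those between conditions. The genes and lists were chosen with earlier results of these data known. Named were the 8 genes, other genes of the pathway lists past 1.5-fold in I/R over sham or SBP over I/R with at least 500 UMIs in the pair of sections, all creatine synthesis, creatine kinase and Vdac genes of those lists, and for Mb, Ckm, Ckb, Slc6a8 and Slc25a5 the 3 genes with the most similar pattern over spots, which Slc6a8 had too few UMIs for. Other scalings, spot filters, weights, Ankrd1 thresholds and folds were tried as alternatives. The marker lists summed for context were cardiomyocyte, smooth muscle, pericyte, fibroblast, endothelium, macrophage, monocyte, neutrophil, T cell, B cell, blood, atrial, skeletal muscle, adipocyte, nerve and Schwann cell, injury and sex-linked genes. Overlapping genes were looked up in GENCODE release M21: Gm49540, opposite to Mb, had 302, 220 and 221 UMIs in sham, I/R and SBP, and A930016O22Rik, opposite to Ckm, had 11, 7 and 5. Single-nucleus data were not analysed here. The work used matplotlib 3.10.9, pandas 2.3.3, scipy 1.17.1, Python 3.11.15 and numpy 2.4.6.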

Additional observations from a re-analysis of the deposited data

Results flagged for a closer look

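Slc25a5 drew attention because its difference between Ankrd1-high and other spots had opposite directions in the sections: a log2 ratio of -0.26 in sham against 0.29 in I/R and 0.34 in SBP, each with an interval that excludes 0. The median gene with at least 1000 UMIs was at 0.18, 0.23 and 0.11 in sham, I/R and SBP. The difference between sections was not tested, since each is 1 section. With the cardiomyocyte list as denominator the sham value was 0.27, in the direction of the other sections.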

How the results depend on the processing

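No paired analysis was possible because the design has only 1 section of every condition. Counting per UMI of the cardiomyocyte list in place of all UMIs changed most. It turned I/R over sham to 0.17 for Ckmt2, 0.0010 for Ak1, 0.11 for Slc25a4 and 0.038 for Mb, SBP over I/R to -0.20 for Ckm, -0.19 for Ckmt2, -0.20 for Ak1 and -0.017 for Slc25a4, and SBP over sham to 0.090 for Slc25a4 and 0.043 for Mb. Within sections it turned Ankrd1-high over other spots to 2.4e-05 for Ckm, 0.12 for Ckmt2, 0.36 for Ak1 and 0.27 for Slc25a5 in sham and to 0.015 for Ckmt2 in SBP. It put 1 gene past 1.5-fold in I/R over sham, 1 in SBP over I/R, and 3, all higher, in Ankrd1-high over other spots of both I/R and SBP. TMM factors and median-of-ratios size factors each put 3 of 8 genes past 1.5-fold in I/R over sham and turned Slc25a5 to -0.095 and -0.11. They put Ckb in I/R over sham at -0.25 and -0.26, with no interval computed. With a threshold of 1.2-fold the counts were 5, 3 and 4 in I/R over sham, SBP over I/R and SBP over sham. The share of all genes was not counted under these other scalings and this threshold, so their counts of genes have no background beside them.

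For Ankrd1-high spots the count was 3 in I/R with the 95th percentile of each section and 1 in SBP with UMIs without mitochondrial genes. It was 0 in both sham and I/R with Ankrd1 measured without these genes. The share of all genes was not counted at these settings either. The mean over spots of the share, used because the median share of Ckb over spots is 0 in each section and gave no ratio, gave differences for Ckb over Ckm of 0.84 (I/R over sham) and -0.98 (SBP over I/R), and for Slc25a5 over Slc25a4 of 0.87, -0.80 and, for SBP over sham, 0.072. Outside spots rich in the injury list these were -0.35, 0.027 and -0.32 for Ckb over Ckm and 0.015, -0.12 and -0.10 for Slc25a5 over Slc25a4; both settings were chosen after seeing the data. The cause of these shifts was not tested. Slc6a8 and Ckb, at 37.1 to 72.9 CPM, are the least precise of the genes.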
